A study of Mus musculus with 7 samples.

Results

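Transcripts of adherens junctions and desmosomes were examined in contralateral mammary tissue, the gland on the side without the tumor, of Brca1-mutant mice with and without overexpression of HMMR. The members were chosen by name, with earlier results of these data known. They were Cdh1, Ctnnb1, Ctnna1 and Ctnnd1 of the adherens junction, the epithelial adhesion gene Epcam, and Dsg2, Dsc2, Jup, Pkp3 and Dsp of the desmosome. Of the 10 genes listed, 9 were matched by symbol among the 23930 genes of the table, and Ctnnd1 was not analysed here. The control group (mice 1, 2 and 3) had the genotype Blg-Cre;Brca1f/f;Trp53+/-, with 3 animals, and the HMMRTg/Tg group (mice 7, 8, 9 and 11) the genotype Blg-Cre;HMMRTg/Tg;Brca1f/f;Trp53+/-, with 4 animals. Both groups thus carried the floxed Brca1 alleles, 1 Trp53 allele and the Cre transgene, and differed by the human HMMR coding sequence behind a stop cassette in Rosa26. All were parous mice of mixed background, labelled as age-matched, with no age given for each mouse. For this tissue the paper gives a lower average age at sacrifice in the HMMRTg/Tg group than in the control group, over more mice per group than were measured here. Cre is driven by the beta-lactoglobulin promoter, which is active in mammary epithelium in lactation, whereas whole paraffin sections were measured, fat, vessels and leukocytes included. Each gene was read by a single amplicon of a mouse panel, and values are reads per 1000000 reads on the panel (RPM). They compare mice for 1 gene and not the levels of different genes.

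Adherens junctions and desmosomes hold epithelial cells to each other. In the adherens junction, E-cadherin binds its like on the next cell and is tied to actin filaments through beta-catenin and alpha-catenin, and beta-catenin is also the nuclear effector of Wnt signaling. In the desmosome, desmogleins and desmocollins play the part of the cadherin, and plakoglobin, plakophilins and desmoplakin tie them to keratin filaments. In the mammary gland both junctions join luminal cells to each other and to the myoepithelial cells around them.

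The 7 libraries held between 5532358 and 9345915 reads, and 3 reads corresponded to 0.321 to 0.542 RPM. Mouse Hmmr ranged over 1.45 to 4.08 RPM in the control group and over 2.43 to 12.2 RPM in the HMMRTg/Tg group (log2 fold change 1.07, limma adjusted p = 0.533), and a contribution of the human transgene to this amplicon was not tested. The labelled tissue carried its markers: the summed level of 12 luminal markers spanned 1809 to 1884 RPM in the control group and 1771 to 2108 RPM in the HMMRTg/Tg group. The summed level of 10 skeletal muscle markers spanned 1759 to 8859 RPM in the control group and 20.6 to 102.0 RPM in the HMMRTg/Tg group. Of these, 10 of 10 passed the limma test as lower, against 0.367% of all genes. In whole sections, fewer cells of a type and less RNA per cell cannot be told apart.

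All 9 measured members had a higher mean in HMMRTg/Tg mice, by 1.26-fold (Dsc2) to 1.72-fold (Epcam), and none passed the test across all genes. The median log2 fold change was 0.54 for the 3 measured adherens junction members and 0.55 for the 5 desmosome members. The desmosome members ranged from 0.19 (Dsc2) to 0.62 (Dsg2). Epcam, a single gene, had 0.78. The groups did not overlap for 4 members, Ctnna1, Epcam, Dsg2 and Jup, and for 6.52% of all genes, with HMMRTg/Tg mice higher. In the plot of RPM by mouse, HMMRTg/Tg mouse 9 was the highest of all mice for 4 members and mouse 7 for 3. Control mice 1 and 2 were each the lowest of all for 3. With single mice left out, all 9 log2 fold changes stayed positive except without mouse 2, 7 or 9, where 8 did.

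**Figure D1:**
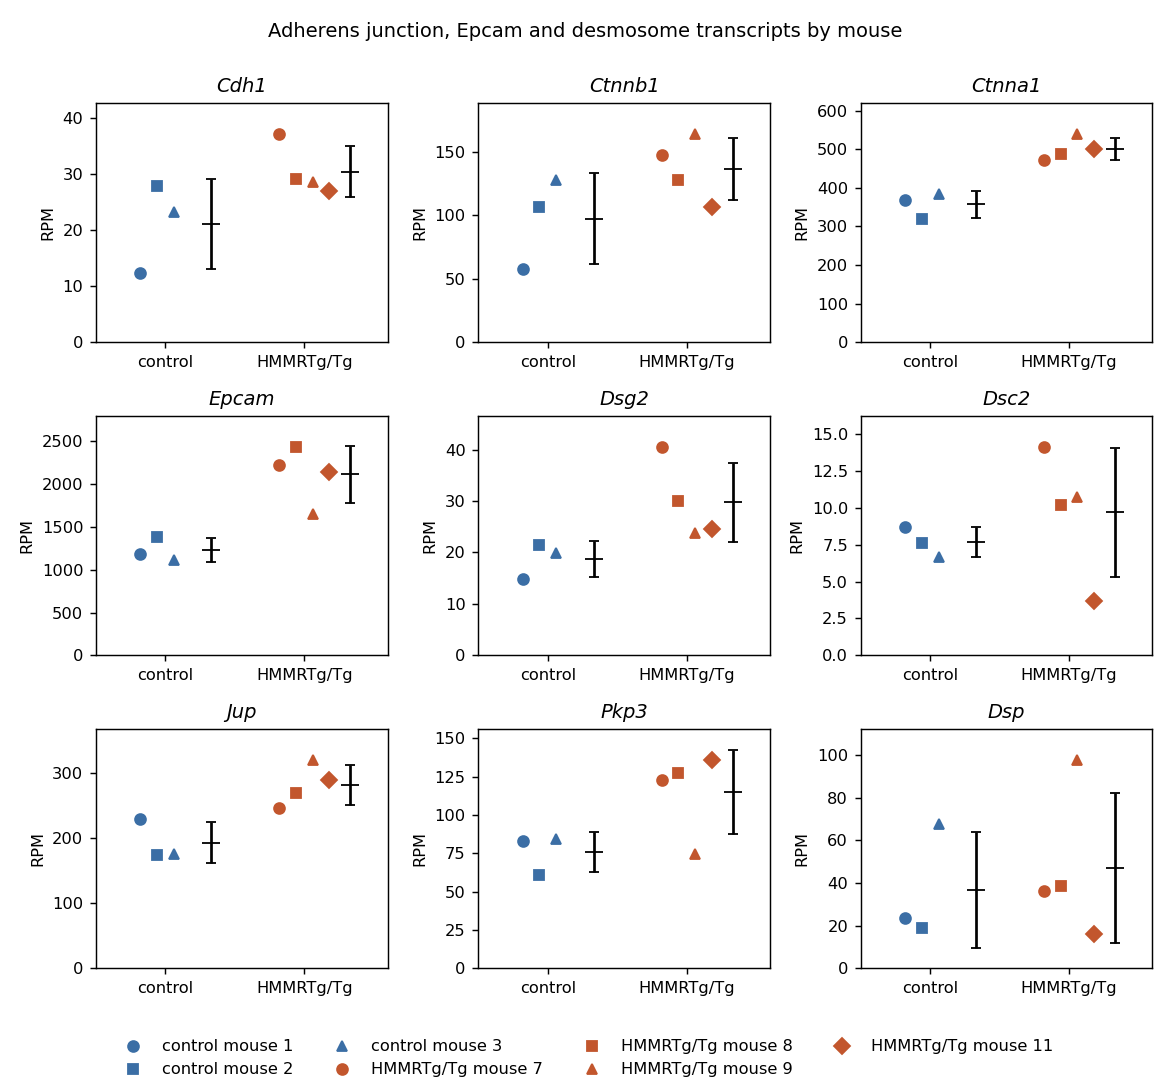
RPM of each of the 9 measured genes (vertical axes, linear from 0, a scale of its own for each gene) in control mice (blue) and HMMRTg/Tg mice (orange), 1 point per mouse, with the mean and the SD in black. For Ctnna1, Epcam, Dsg2 and Jup all 4 HMMRTg/Tg mice lie above all 3 control mice, and for Dsp mice 3 and 9 stand above the others.

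Cdh1 encodes E-cadherin, the cadherin of the epithelial adherens junction. Its level was 12.3, 27.8 and 23.3 RPM in control mice 1, 2 and 3, and 37.1, 29.1, 28.6 and 26.9 RPM in HMMRTg/Tg mice 7, 8, 9 and 11. Mouse 1 was the lowest of all mice, and control mouse 2 lay above HMMRTg/Tg mouse 11, so that the groups overlapped. The means were 21.1 ± 7.98 RPM (SD, n = 3) and 30.5 ± 4.55 RPM (SD, n = 4), a log2 fold change of 0.57 (SE 0.29, limma adjusted p = 0.566), and it was 0.24 without mouse 1.

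Ctnnb1 encodes beta-catenin, which binds the cytoplasmic tail of E-cadherin. Its amplicon gave 57.7, 106.4 and 127.6 RPM in control mice 1, 2 and 3, and 147.3, 127.5, 163.7 and 106.6 RPM in HMMRTg/Tg mice 7, 8, 9 and 11. Mouse 1 was again the lowest, and mouse 11 lay at the level of control mouse 2. The log2 fold change was 0.54 (SE 0.28, limma adjusted p = 0.56), and it was 0.21 without mouse 1.

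Ctnna1 encodes alpha-E-catenin, which links beta-catenin to actin filaments. The values were 368.2, 318.8 and 384.8 RPM in control mice 1, 2 and 3, and 471.2, 488.6, 539.0 and 499.5 RPM in HMMRTg/Tg mice 7, 8, 9 and 11. The groups did not overlap, and each was narrow: its highest mouse exceeded its lowest by 1.21 times in control mice and by 1.14 times in HMMRTg/Tg mice. The log2 fold change was 0.49 (95% interval 0.11 to 0.87, unadjusted p = 0.0171, adjusted p = 0.365, both from limma).

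Epcam encodes a homophilic adhesion molecule of simple epithelia that is no cadherin. Reads on it came to 1185, 1382 and 1108 RPM in control mice 1, 2 and 3, and 2227, 2430, 1647 and 2143 RPM in HMMRTg/Tg mice 7, 8, 9 and 11. The groups did not overlap, and mouse 9 was the nearest to the control mice. The means were 1225 ± 141.2 RPM (SD, n = 3) and 2112 ± 332.2 RPM (SD, n = 4). This was the largest log2 fold change among the 9 members, at 0.78 (95% interval 0.27 to 1.28, unadjusted p = 0.00637, adjusted p = 0.281, both from limma).

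Because Epcam had the largest difference, the 250 bases before its start are shown with 2 motifs in capitals: CAGGTG, which reads as CACCTG on the other strand and is the form of E-box bound by Snail and Zeb proteins, and ACCGGT, its own complement and the core bound by Grainyhead-like proteins. The window holds the first motif, on either strand, 2 times, beginning 187 and 19 bases before the start, and the second one 2 times, beginning 174 and 131 bases before it. Of 32851 promoter windows of this length, 17.2% hold the first on either strand and 1.86% the second. The sequence is from RefSeq (GRCm38.p6, chr17:87635729-87635978, plus strand). The gene and both motifs were picked after results and sequences had been seen, and a match is a description, not a bound site.
Epcam: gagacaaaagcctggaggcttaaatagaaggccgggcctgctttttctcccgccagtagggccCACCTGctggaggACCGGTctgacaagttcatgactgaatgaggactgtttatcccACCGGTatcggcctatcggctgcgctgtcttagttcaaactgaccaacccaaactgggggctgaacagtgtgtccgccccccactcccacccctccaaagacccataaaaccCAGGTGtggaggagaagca

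Among the desmosome genes, Dsg2 encodes desmoglein 2, the desmosomal cadherin of simple epithelia. Levels were 14.8, 21.4 and 19.998 RPM in control mice 1, 2 and 3, and 40.5, 30.1, 23.8 and 24.6 RPM in HMMRTg/Tg mice 7, 8, 9 and 11. The groups did not overlap, with mice 9 and 11 just above control mouse 2. The log2 fold change was 0.62 (95% interval 0.03 to 1.21, unadjusted p = 0.0401, adjusted p = 0.48, both from limma). The exact 95% Poisson interval of control mouse 2, 18.5 to 24.7 RPM, included the values of mice 9 and 11, so that this gap lay within counting error.

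Dsc2 encodes desmocollin 2, the partner cadherin of desmoglein 2. Its level was 8.68, 7.62 and 6.67 RPM in control mice 1, 2 and 3, and 14.1, 10.2, 10.7 and 3.68 RPM in HMMRTg/Tg mice 7, 8, 9 and 11. Mice 7, 8 and 9 lay above the control mice, and mouse 11, with 22 reads, lay below all of them. The log2 fold change was 0.19 (95% interval -0.72 to 1.09, limma adjusted p = 0.916), and it was 0.54 without mouse 11 and -0.02 without mouse 7.

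Jup encodes plakoglobin, the relative of beta-catenin that serves both junctions. Its amplicon gave 228.5, 174.5 and 175.5 RPM in control mice 1, 2 and 3, and 246.3, 269.5, 319.2 and 289.1 RPM in HMMRTg/Tg mice 7, 8, 9 and 11. The groups did not overlap, with control mouse 1 close below mouse 7. The log2 fold change was 0.55 (95% interval 0.14 to 0.95, unadjusted p = 0.0135, adjusted p = 0.35, both from limma).

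Pkp3 encodes plakophilin 3, an armadillo-repeat protein that binds desmosomal cadherins and desmoplakin. The values were 83.1, 60.6 and 84.1 RPM in control mice 1, 2 and 3, and 122.7, 127.2, 74.8 and 135.7 RPM in HMMRTg/Tg mice 7, 8, 9 and 11. HMMRTg/Tg mice 7, 8 and 11 lay above the control mice, and mouse 9 lay within their range. The log2 fold change was 0.57 (SE 0.24, unadjusted p = 0.039, adjusted p = 0.478, both from limma).

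Dsp encodes desmoplakin, which anchors keratin filaments to the plaque of every desmosome. Reads on it came to 23.7, 18.8 and 67.8 RPM in control mice 1, 2 and 3, and 36.1, 38.4, 97.6 and 16.1 RPM in HMMRTg/Tg mice 7, 8, 9 and 11. The lowest and the highest of the 7 mice were both HMMRTg/Tg mice, and control mouse 3 was the second highest. The spread within a genotype was 3.61 times between lowest and highest in control mice and 6.07 times in HMMRTg/Tg mice. It exceeded the 1.28-fold ratio of the group means (log2 fold change 0.30, 95% interval -0.95 to 1.54, limma adjusted p = 0.899). Without mouse 3 this log2 fold change was 0.84, and without mouse 9 it was -0.14.

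By RefSeq annotation of GRCm38.p6, the assembly of mm10, the members lay apart in the genome except for the desmosomal cadherins Dsc2 (chr18:20030633-20059554) and Dsg2 (chr18:20558074-20604526), of the cadherin cluster. Ctnna1 (chr18:35118902-35254776) was on the same chromosome. The others were Cdh1 (chr8:106603350-106670247), Ctnnb1 (chr9:120933400-120960507), Epcam (chr17:87635979-87651127), Jup (chr11:100368856-100397839), Pkp3 (chr7:141078229-141090511) and Dsp (chr13:38151294-38198577). The neighbours Dsc2 and Dsg2 differed in the mice that were low: Dsc2 was lowest in HMMRTg/Tg mouse 11, and Dsg2 in control mouse 1.

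Against all 13080 genes tested, 0 of the 9 members were called higher by limma at an adjusted p under 0.05, where 0.0382% of all genes were, and 0 were called lower, where 0.367% were. By edgeR and DESeq2, run on the whole reads recovered from the values, 0 members were called higher as well, against 0.0306% and 0.617% of all genes. At an unadjusted p under 0.05, limma gave 5 members (Ctnna1, Epcam, Dsg2, Jup and Pkp3) as higher, against 6.49% of all genes, and 0 as lower, against 3.22%. That count was 2 (Epcam and Dsg2) by edgeR, against 4.44% of all genes, and 2 (the same genes) by DESeq2, against 4.56%. The groups did not overlap, with HMMRTg/Tg mice higher, for 4 of 9 members and for 6.52% of all genes.

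A positive log2 fold change was found for 9 of 9 members and for 61.2% of all genes, with medians of 0.55 and 0.11. Because the members were chosen with earlier results of these data known, this and the shares above are descriptions and not tests. With TMM factors, which change the scaling alone, the medians were 0.45 and 0.02, and with DESeq2, which changes scaling and model together, 0.41 and -0.01. The members lay 0.44 above all genes in RPM, 0.43 with TMM factors and 0.42 with DESeq2. A scaling factor moves the members and all genes nearly alike, so these values could hardly differ and show nothing about scaling. With the myoepithelial mean as a covariate the members lay 0.30 above all genes. In reads simulated with a dispersion (spread between mice) shared by all genes, the test recovered 7.4% of 2-fold and 75% of 4-fold changes. In the data the spread differed from gene to gene, with a limma SE of 0.17 for Ctnna1 and 0.56 for Dsp. The simulated shares therefore do not tell how often the test would find differences of the members.

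**Figure D2:**
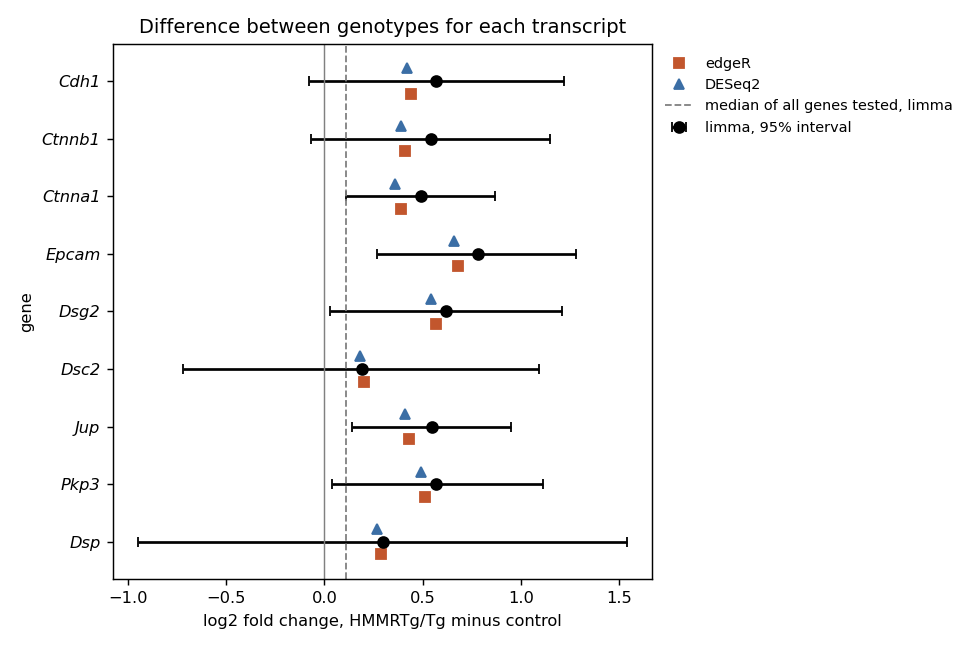
Log2 fold change (horizontal axis, HMMRTg/Tg minus control) of the 9 measured genes from limma with its 95% interval (black), from edgeR (orange squares) and from DESeq2 (blue triangles). The limma values lie between 0.19 and 0.78, right of the dashed median of all genes at 0.11, and the intervals of Cdh1, Ctnnb1, Dsc2 and Dsp include 0.

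Whether members of 1 complex kept their proportions was asked with 6 ratios taken within each mouse, as differences of log2(RPM + 1), which also remove any factor that acts on both genes alike. The difference between genotypes was -0.03 for Ctnnb1 to Cdh1, -0.09 for Ctnna1 to Cdh1 and 0.01 for Jup to Ctnnb1. It was 0.21 for Epcam to Cdh1, 0.28 for Pkp3 to Dsp and -0.44 for Dsc2 to Dsg2. In each of the 6 the groups overlapped, and no difference passed (exact permutation test, two-sided, lowest p = 0.286 for Dsc2 to Dsg2, adjusted p = 1 over the 6 ratios). Leaving out single mice moved every one of the 6. Epcam to Cdh1 was 0.52 without mouse 1 and 0.03 without mouse 3, and Dsc2 to Dsg2 was -0.16 without mouse 11 and -0.20 without mouse 1. With 3 mice against 4 the smallest p of the test is 0.0571, so that none could have reached 0.05.

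The ratio of Ctnnb1 to Cdh1 was the tightest, from 1.90 to 2.41 on the log2 scale in control mice and from 1.95 to 2.47 in HMMRTg/Tg mice. Mouse 1, low in both genes, had a ratio of 2.14, within that range, but it was the highest of the 7 mice in 4 other ratios: 4.80 for Ctnna1 to Cdh1, 6.48 for Epcam to Cdh1, 1.97 for Jup to Ctnnb1 and -0.71 for Dsc2 to Dsg2. The ratio of Pkp3 to Dsp was the widest: it was -0.38 in mouse 9 and 3.00 in mouse 11, both HMMRTg/Tg mice.

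Epithelial content was set beside the members through marker lists. The mean log2(RPM + 1) of 12 luminal markers was higher by 0.12 in the HMMRTg/Tg group, with overlap between the genotypes (p = 0.343, two-sided exact permutation test). Taken relative to that mean within each mouse, Epcam was higher by 0.66, Dsg2 by 0.51, Pkp3 by 0.46 and Cdh1 by 0.45. Jup was higher by 0.43, Ctnnb1 by 0.42, Ctnna1 by 0.37, Dsp by 0.18 and Dsc2 by 0.07. The luminal markers did not move as one: Cldn3, a claudin, had a log2 fold change of 0.99 and Elf5, a factor of alveolar progenitors, one of 0.84, whereas Prlr, the prolactin receptor, had one of -1.03 and Foxa1, a factor of hormone-sensing cells, one of -0.76, and 0 of 12 passed the test with limma. DESeq2 called the last 2 as lower, as it did 1.46% of all genes. These 4 genes were picked once their values were known.

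The mean of the myoepithelial markers was higher by 0.36 (p = 0.286, two-sided exact permutation test), and their summed level spanned 801 to 897 RPM in the control group and 893 to 1461 RPM in the HMMRTg/Tg group. With that mean as a covariate, the median of the members was 0.30 in place of 0.55. The leukocyte markers had negative log2 fold changes in 8 of 8 genes (median -0.59, 0 called), against 5071 of the 13080 genes tested. Their summed level spanned 406 to 1361 RPM in the control group and 446 to 809 RPM in the HMMRTg/Tg group. The control group was split: mouse 2 was the lowest of all mice, and mice 1 and 3, at 1210 and 1361 RPM, were the highest. The part of cell makeup in the members' differences was not tested further.

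Keratinocyte transcripts moved with Dsp. Flg, the filaggrin of the skin's outer layer, was read at 18.7 RPM in control mouse 3 and 43.9 RPM in HMMRTg/Tg mouse 9 and at 0 in the other 5 mice. Of the 7 keratinocyte markers on the panel, 5 had their 2 highest mice in mice 3 and 9, and so had 5 of 9 other desmosome genes and, among the 9 members, Dsp alone. The summed level of the keratinocyte markers spanned 27.0 to 104.6 RPM in the control group and 20.2 to 256.6 RPM in the HMMRTg/Tg group, with mice 3 and 9 at the top. The summed level of the adipocyte markers was also highest in these mice, at 3162 RPM in mouse 3 and 4590 RPM in mouse 9. In the mean log2(RPM + 1) of the adipocyte markers, however, mouse 7 (8.20) lay above mouse 3 (7.95) and below mouse 9 (8.43). How many of all genes had their highest values in these mice was not counted. The pattern was noticed after the values were seen, and the part of skin cells in Dsp was not tested.

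Because Dsp varied within the genotypes rather than between them, the 250 bases before its start are shown as well, a choice made after its values were seen. They hold neither CAGGTG nor ACCGGT on either strand, nor do those of Jup. The sequence is from RefSeq (GRCm38.p6, chr13:38151044-38151293, plus strand), all in lower case because nothing in it is marked.
Dsp: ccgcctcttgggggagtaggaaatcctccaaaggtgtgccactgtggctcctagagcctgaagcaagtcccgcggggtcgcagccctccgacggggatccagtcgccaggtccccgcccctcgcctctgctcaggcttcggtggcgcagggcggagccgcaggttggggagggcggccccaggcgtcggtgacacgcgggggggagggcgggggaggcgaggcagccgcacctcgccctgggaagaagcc

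**Figure D3:**
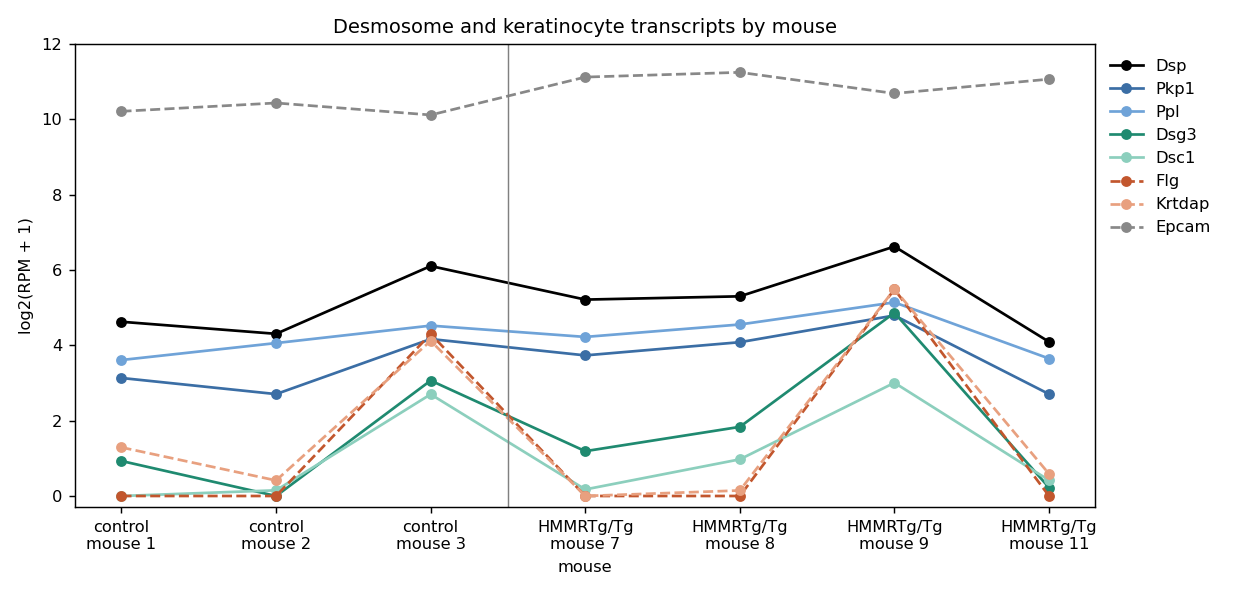
Log2(RPM + 1) by mouse of Dsp, of the desmosome genes Pkp1, Ppl, Dsg3 and Dsc1 (solid lines), and of the keratinocyte genes Flg and Krtdap and of Epcam (dashed lines); lines join the values of 1 gene and carry no order in time. Dsp, Pkp1, Dsg3, Dsc1, Flg and Krtdap have their 2 highest values in control mouse 3 and HMMRTg/Tg mouse 9, and Epcam does not.

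The other desmosome genes, which include the desmogleins and desmocollins of stratified epithelium, showed it in part. Dsg3, the desmoglein of basal keratinocytes, was read at 0.904, 0 and 7.37 RPM in control mice 1, 2 and 3, and at 1.28, 2.57, 28.1 and 0.167 RPM in HMMRTg/Tg mice 7, 8, 9 and 11. Pkp1, the plakophilin of stratified epithelium, was read at 7.77, 5.52 and 17.0 RPM and at 12.3, 15.9, 26.7 and 5.52 RPM in the same order. For both, the groups overlapped, and mice 3 and 9 were the highest. Of 12 genes listed, 5 were tested (Dsg3, Pkp1, Ppl, Pkp2 and Perp), 0 were called by any tool, and 0 had an unadjusted p under 0.05. Their median log2 fold change was 0.33, and it was 0.05 for Pkp2, the plakophilin shared with heart, and for Perp, a tetraspan protein of desmosomes, both of which turned negative under other scalings.

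Of 26 other adherens junction genes, 24 were tested, with a median of 0.18, and 0 were called by limma. The groups did not overlap for 4 with HMMRTg/Tg mice higher, against 6.52% of all genes. For 2, Cdh15 and Ctnnal1, they did not overlap with HMMRTg/Tg mice lower, against 437 of the 13080 genes tested. At an unadjusted p under 0.05, limma gave 4 as higher, against 6.49% of all genes, and 1 as lower, against 3.22%. Those 4 were Arvcf, Plekha7, Camsap3 and Nectin4. Arvcf, a p120-catenin relative that binds cadherin tails, was read at 18.1, 21.97 and 30.3 RPM in control mice 1, 2 and 3, and at 44.4, 41.6, 41.6 and 47.5 RPM in HMMRTg/Tg mice 7, 8, 9 and 11, without overlap. Its log2 fold change was 0.90 (SE 0.23, limma adjusted p = 0.218), and DESeq2 called it (adjusted p = 0.0439), as it did 0.617% of all genes as higher.

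Plekha7, which binds the cadherin complex and tethers microtubule minus ends to it through Camsap3, had a log2 fold change of 0.72 and Camsap3 one of 0.86 (limma adjusted p = 0.334 and 0.48). Nectin4, a nectin of epithelial junctions, had one of 0.53 (limma adjusted p = 0.44). For Plekha7 and Nectin4 the groups did not overlap, and for Camsap3, named after its values were seen, they did.

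Cdh15, M-cadherin of muscle, was the 1 gene that limma gave as lower at an unadjusted p under 0.05. Levels were 1.63, 8.17 and 1.40 RPM in control mice 1, 2 and 3, 0.428 RPM in HMMRTg/Tg mouse 8 and 0 in mice 7, 9 and 11 (log2 fold change -1.82 on the log2(RPM + 1) scale, limma adjusted p = 0.231). DESeq2 called it lower (log2 fold change -5.10, adjusted p = 0.00387), as it did 1.46% of all genes. With 3 mice at 0 the size depends on the pseudocount, from -4.20 at 0.1 to -0.41 at 10, and is no measure of how much lower it was. Control mouse 2, the highest for Cdh15, also had the most skeletal muscle transcripts, at a summed 8859 RPM.

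Of 7 partners of Epcam, 6 were tested, with a median of 0.38, 6 of 6 positive, against 61.2% of all genes, 0 called by any tool and 1 with an unadjusted p under 0.05, against 6.49%. That gene was St14, which encodes matriptase, a membrane protease of epithelia. Its level was 65.3, 103.0 and 72.7 RPM in control mice 1, 2 and 3, and 142.4, 173.9, 132.9 and 193.9 RPM in HMMRTg/Tg mice 7, 8, 9 and 11. The groups did not overlap, and the log2 fold change was 1.00 (SE 0.22, limma adjusted p = 0.115, 0.0695 from DESeq2).

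The regulators were described in a group that holds Cdh1 transcription down and a group that keeps epithelial genes on. Of 8 repressors of Cdh1, 7 were tested, with a median of 0.15 and 0 called by any tool. At an unadjusted p under 0.05, limma gave 1 as lower, against 3.22% of all genes. That gene was Snai2, which encodes Slug and is also a gene of basal mammary cells. Its amplicon gave 295.5, 180.6 and 173.1 RPM in control mice and 151.2, 152.5, 140.7 and 131.3 RPM in HMMRTg/Tg mice, without overlap (log2 fold change -0.54, limma adjusted p = 0.433). Of the 7, 4 had positive and 3 negative values. Tcf3, an E protein, had a log2 fold change of -0.69, Snai1 one of -0.48 and Tcf4, another E protein, one of 0.37 (limma adjusted p = 0.591, 0.626 and 0.691), each with overlapping groups.

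Of 12 epithelial factors, 11 were tested, with a median of 0.48, 10 of 11 positive, against 61.2% of all genes, and 0 called by any tool. At an unadjusted p under 0.05, 4 were higher by limma, edgeR and DESeq2, against 6.49%, 4.44% and 4.56% of all genes: Ehf, an ETS factor, with a log2 fold change of 0.98, Grhl1, a Grainyhead-like factor, with 0.91, Esrp1, an epithelial splicing factor, with 0.91, and Ovol1, a zinc finger repressor, with 1.11. Ehf was read at 246.5, 428.2 and 216.8 RPM in control mice and at 696.5, 557.2, 386.3 and 653.7 RPM in HMMRTg/Tg mice 7, 8, 9 and 11. In all 4 the groups overlapped, with control mouse 2 above HMMRTg/Tg mouse 9.

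Beta-catenin also acts in the nucleus, so its destruction complex and its feedback targets were set beside Ctnnb1. Of 10 genes of the complex 9 were tested, with a median of 0.18, 0 called by any tool and 0 with an unadjusted p under 0.05. Of 11 targets 8 were tested, with a median of 0.01, 4 positive and 4 negative values, and 0 called by limma. Nkd2, a feedback inhibitor of Wnt signaling, was read at 86.0, 52.5 and 89.1 RPM in control mice and at 174.0, 177.2, 219.9 and 149.8 RPM in HMMRTg/Tg mice, without overlap. Its log2 fold change was 1.26 (SE 0.23, limma adjusted p = 0.0513, 0.0973 from edgeR and 0.00277 from DESeq2), so that the call depended on the tool. DESeq2 called 0.617% of all genes as higher.

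Axin2, a target in many tissues and a member of both lists, was read at 101.8, 100.02 and 106.7 RPM in control mice and at 139.7, 133.4, 119.2 and 110.4 RPM in HMMRTg/Tg mice (log2 fold change 0.28, limma adjusted p = 0.638), without overlap. Tcf7 had a log2 fold change of -1.43 and Lef1 one of -0.95 (limma adjusted p = 0.545 and 0.638). Lef1 was -0.19 without control mouse 3, and Tcf7 was -0.80 without control mouse 1 and -2.53 without control mouse 2. On recovered reads Tcf7 was -2.08 by edgeR and -2.12 by DESeq2, and Lef1 was -1.70 and -1.73, all at an unadjusted p under 0.05 and none called. Both are also T cell factors, and control mice 1 and 3, with 586.5 and 481.0 RPM of Tcf7, were also those with the most leukocyte transcripts, at a summed 1210 and 1361 RPM. The part of leukocytes in these values was not tested.

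**Figure D4:**
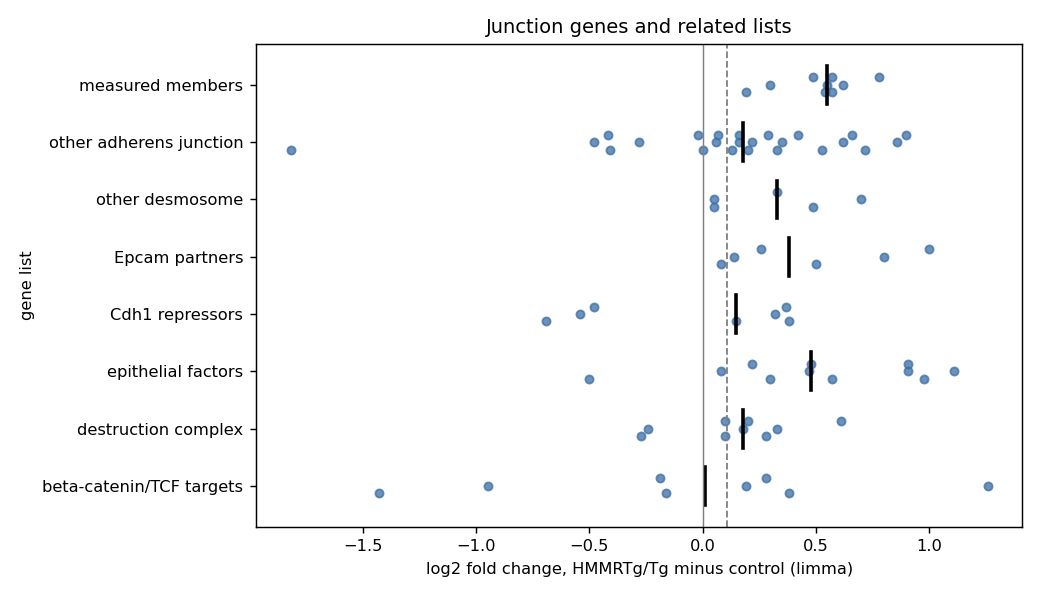
Log2 fold change (horizontal axis, HMMRTg/Tg minus control, limma) of the tested genes of the members and of the 7 related lists, 1 point per gene, with the list's median as a black bar and the median of all genes, 0.11, as a dashed line. The 9 members lie between 0.19 and 0.78, and the other adherens junction genes and the beta-catenin targets spread to both sides of 0.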

How the data were processed

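RNA from paraffin sections of 3 control and 4 HMMRTg/Tg mice was amplified with a mouse amplicon panel, sequenced on an Ion Torrent S5 instrument and processed by the authors with the AmpliSeqRNA plug-in. The submitters' processing notes name mm10 and Transcriptome Analysis Console, and the aligner is not given in the sources used here. The values that the authors deposited carry the name TPM, which is RPM here (reads scaled to the panel's total, with no length correction), because each mouse summed to 1000000 and 100% of low values were whole multiples of 1 read within 0.05 reads. The 27 symbols that had become dates were restored from amplicon names.

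Log2(RPM + 1) was tested with limma 3.58.1 in R 4.3.3 (eBayes with a trend) on genes of at least 1 RPM in at least 3 mice, with Benjamini-Hochberg adjustment over all 13080. On recovered reads, edgeR 4.0.16 and DESeq2 1.42.0 were alternatives. Single values were compared by exact two-sided permutation over 35 splits. Samples were grouped by label, and reads of same-group pairs differed far more than sampling allows (chi-square over its degrees of freedom, 27.6 to 140.2), so each mouse counted once. The labels name separate mice. Poisson intervals and limits cover counting error only, since reads without molecular identifiers are not independent molecules. Simulated reads (200 genes changed, 5 runs, a dispersion shared by all genes) gave 3.6 false calls per run. Alternatives were other pseudocounts, filters, scalings, weights, covariates and leaving out each mouse.

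The members and lists were chosen with earlier results of these data known. In each list up to 4 genes of lowest unadjusted p and up to 2 of highest mean could be named. Of the latter the text names only Perp, Pkp2, St14, Ehf, Grhl1, Axin2, Tcf7 and Nkd2. A gene of the planned lists is not reported here and was left out of its list's counts. A planned ratio of Ctnnd1 to Cdh1 was not analysed here. Promoter windows were found for Ctnnb1, Dsp, Epcam and Jup, 4 of the members.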

Additional observations from a re-analysis of the deposited data

Results flagged for a closer look

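Of 44 sets of 4 values looked at in HMMRTg/Tg mice, 2 held a mouse far from the others, and chance gives about 1 in 20. Dsg3 was read at 28.13 RPM in mouse 9 and at 0.167 to 2.57 RPM in the other HMMRTg/Tg mice. Cdh15 was read at 0.428 RPM, or 4 reads, in mouse 8 and at 0 in the others. With the others at 0, any read in 1 mouse sets it apart, so this value says nothing about mouse 8. Neither is a gene of the listed members.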

How the results depend on the processing

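The number of members called stayed at 0 under each of 21 alternatives. The median log2 fold change of the members, 0.55, was 0.30 with the myoepithelial mean as a covariate, between 0.47 and 0.67 when each mouse was left out, and positive under every alternative run. The number of members higher at an unadjusted p under 0.05, 5, was 2 with TMM factors, edgeR and DESeq2 and 3 with the myoepithelial covariate. It was 3 to 5 when each mouse was left out, lowest without mouse 7 or mouse 8. This count and its alternatives, and the keratinocyte covariate, which left the median at 0.56, were chosen after the data were seen. Cdh1, Ctnnb1, Ctnna1, Epcam, Dsg2, Jup and Pkp3 stayed positive under all 21 alternatives, but Cdh1 ranged from 0.24 (myoepithelial covariate or without control mouse 1) to 0.80 and Ctnnb1 from 0.21 (without control mouse 1) to 0.77. Epcam, the member of lowest p, had an adjusted p of 0.176 to 0.68. Dsc2 was -0.02 with the luminal and -0.12 with the myoepithelial covariate, and -0.02 to 0.54 when each mouse was left out. Dsp was -0.10 with the luminal covariate and -0.14 to 0.84 when each mouse was left out, with -0.06 without control mouse 2. Of the related genes, Perp was -0.05 (TMM), -0.04 (quantile normalization and edgeR), -0.06 (DESeq2), -0.21 (luminal and myoepithelial covariates) and -0.15 to 0.24 (each mouse left out). Pkp2 was -0.04 (TMM), -0.03 (quantile normalization), -0.07 (edgeR), -0.09 (DESeq2) and -0.05 to 0.19 (each mouse left out). Ppl was -0.01 with the luminal covariate and Dsg3 -0.25 to 1.56 when each mouse was left out. Nkd2 was called by DESeq2 and in 3 further alternatives, with an adjusted p of 0.00277 to 0.228 over all 21, and Tcf7 was called without control mouse 2 (adjusted p = 0.00901). Cdh15 ranged from -5.10 (DESeq2) to -0.41 (pseudocount of 10), and Lef1 from -1.73 (DESeq2) to -0.19 (without control mouse 3). With a pseudocount of 10, the ratios of Ctnnb1 and of Ctnna1 to Cdh1 differed by 0.09 and 0.07. When each mouse was left out, the difference was -0.16 to 0.10 for Ctnnb1 to Cdh1, -0.39 to 0.27 for Ctnna1 to Cdh1, -0.29 to 0.47 for Jup to Ctnnb1, -0.22 to 0.91 for Pkp3 to Dsp, 0.03 to 0.52 for Epcam to Cdh1 and -0.61 to -0.16 for Dsc2 to Dsg2. The cause of these shifts was not tested. No paired analysis was possible because the groups share no replicate numbers.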
